A study of Bos taurus with 13 samples.

Results

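The miRNAs of the imprinted DLK1-DIO3 domain were followed in the small RNA of extracellular vesicles (EVs) from bovine follicular fluid. EVs are membrane-bound particles that cells release and that carry RNA, and follicular fluid surrounds the oocyte in the antral follicle. Members were chosen by name alone, as every bta-miR with 1 of 41 numbers known from this domain, with any letter or arm ending, and 18 of the 311 miRNAs listed for any group met the rule. They come from 17 hairpins. The RefSeq gene table paired all 18 with a miRNA gene, and all 18 genes lay between DLK1 and DIO3. In that interval RefSeq has 59 miRNA genes, of which 53 meet the naming rule and 36 of those have no miRNA among the listed ones, so those 36 were not analysed here. They include bta-miR-665, the miRNA next to miR-493, which the paper reports as detected in APCs alone. Also among them are miR-431, miR-136, miR-370 and miR-376e. The paper reports these, together with bta-miR-411c-3p, as particular to the always negative cows (ANCs). None of these miRNAs is among the listed ones. The levels and shares below therefore leave them out, and their detection in single groups was not tested. The mature sequences were not used here, since no table of them was given.

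The DLK1-DIO3 domain is one of the large imprinted domains of mammals, where a gene is read from only the maternal or only the paternal chromosome. DLK1 (a Notch-like membrane protein that restrains fat differentiation), RTL1 (a retrotransposon-derived gene needed in the placenta) and DIO3 (the enzyme that inactivates thyroid hormone) are read from the paternal copy. The maternal copy gives long noncoding transcripts such as MEG3, and the miRNAs of the domain are cut from these transcripts. Many of them can therefore be released from shared precursors, although each hairpin is processed on its own. The miRNAs lie in a segment near MEG3 and RTL1, where some are antisense to RTL1, and in a long array further along that runs from miR-379 to miR-410 and beyond. Of the 18 members, bta-miR-493, bta-miR-433, bta-miR-127 and bta-miR-432 belong to the first segment. In order along the chromosome, the array holds bta-miR-379, bta-miR-411a, bta-miR-380-3p, bta-miR-323, bta-miR-494, bta-miR-154c, bta-miR-381, bta-miR-487b, bta-miR-411c-5p, bta-miR-382, bta-miR-485, bta-miR-409a and both arms of miR-369.

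The study asked how the energy balance of Holstein Friesian dairy cows after calving goes with the miRNAs of follicular EVs. All 13 libraries were pools of fluid from large follicles, taken by ovum pick-up from lactating cows or from heifers that had not calved. Transient cows (TCs), which were in negative energy balance early and in positive balance later, gave 3 pools at weeks 5 and 6 after calving (11 cows) and 3 pools at weeks 9 and 10 (7 cows). Always negative cows (ANCs) and always positive cows (APCs) gave 2 pools each at weeks 5 and 6, and each of these groups came from only 2 cows. Heifers, in positive balance, gave 3 pools from 8 animals. The sources used here do not give which animals went into which pool, so p-values measure the spread between these pools. Calving, lactation and age cannot be told apart between cows and heifers.

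Levels are CPM (read counts scaled to a common library total) with the 13 pools scaled together, rebuilt from the reads behind the deposited values, and are given as mean ± SD over the pools of a group. A library held between 145030 and 421435 recovered reads (median 327359), and 3 reads corresponded to between 7.9 and 19.0 CPM as deposited. Each group has its own deposited list of miRNAs, and a miRNA outside a list is unknown in that group and not 0. The heifer list held all 18 members, and the TC lists held 17 at weeks 9 and 10 and 14 at weeks 5 and 6. The ANC and APC lists held 12 members each. The 11 members in all 5 lists were bta-miR-493, bta-miR-127, bta-miR-432, bta-miR-379, bta-miR-411a, bta-miR-494, bta-miR-154c, bta-miR-381, bta-miR-382, bta-miR-369-3p and bta-miR-369-5p.

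The cluster was a small part of the vesicle miRNA. Its 18 members held 5495 reads over the 13 pools, and the share of a pool's reads ran from 0.0615% in the second APC pool to 0.238% in the second heifer pool. In the heifers the share was 0.203%, 0.238% and 0.135% in the 3 pools. TCs at weeks 9 and 10 had 0.231%, 0.160% and 0.121%, and TCs at weeks 5 and 6 had 0.120%, 0.147% and 0.0766%. Shares were 0.113% and 0.0615% in the APC pools and 0.0702% and 0.101% in the ANC pools. By this share, all 4 pools of ANCs and APCs lay below all 3 heifer pools, whereas pools of the TCs at both times overlapped with the heifers. Because the members listed differ between groups, the share was also taken over the 11 members in every list, and it was 0.183 ± 0.0503% in heifers (n = 3), 0.163 ± 0.0562% in TCs at weeks 9 and 10 (n = 3), 0.111 ± 0.0353% in TCs at weeks 5 and 6 (n = 3), 0.0867 ± 0.0360% in APCs (n = 2) and 0.0851 ± 0.0210% in ANCs (n = 2). The order of the group means was the same for both shares, and ANCs and APCs, the last in that order, differed by less than their SD. A share of reads depends on all other miRNAs of a library. In the 13-pool scaling the 11 members summed to 1367 CPM in the first APC pool, above the third heifer pool (1194 CPM). Both ANC pools (587 and 1057 CPM) stayed below every heifer pool. The means of these sums were 1114 ± 358 CPM in APCs and 822 ± 333 CPM in ANCs. These shares and sums are a description of the members together and were not tested. Fewer cells or vesicles of one type and less of an miRNA per vesicle cannot be told apart in such pools.

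**Figure D1:**
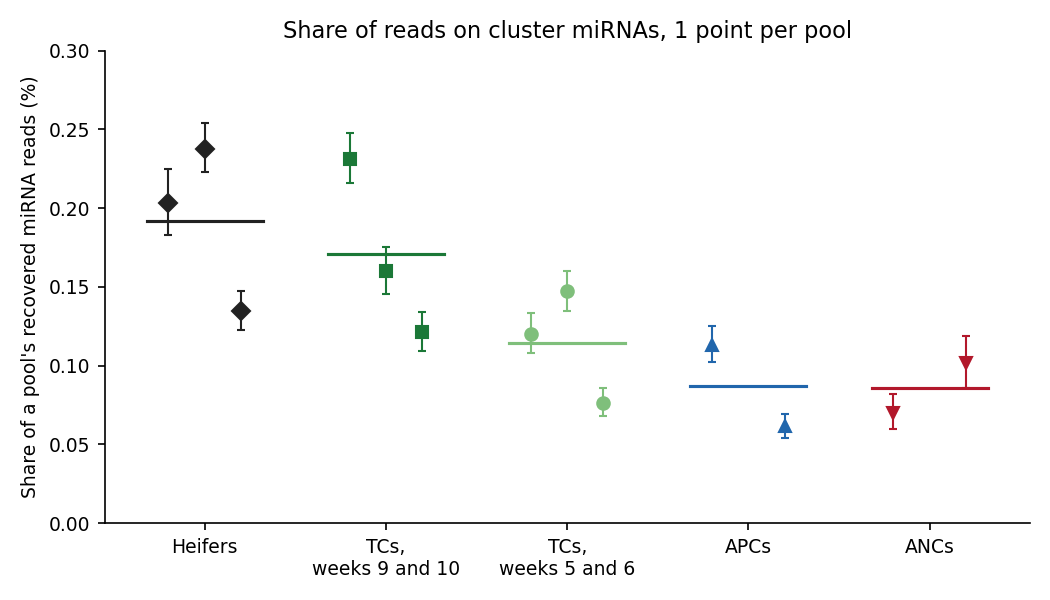
Share of each pool's recovered miRNA reads that fell on cluster miRNAs, in percent, by group. Points are pools, whiskers are exact 95% binomial intervals that cover counting error only, and horizontal lines are group means. The highest pool is in heifers (0.238%) and the lowest in APCs (0.0615%).

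Reads were concentrated on few members. bta-miR-432, bta-miR-382 and bta-miR-379 held 74.5% of the 5295 reads of the 11 members, with 39.9%, 21.9% and 12.7% each. bta-miR-494 held 6.99%, bta-miR-411a 4.91%, bta-miR-154c 3.89% and bta-miR-127 2.66%. The remaining 4, with bta-miR-369-3p, bta-miR-369-5p, bta-miR-381 and bta-miR-493, held between 1.32% and 2.49% each. bta-miR-432, the most abundant member, was at rank 114 by mean level among all miRNAs listed, and bta-miR-493, the least abundant of the 11, at rank 252. Neighbouring hairpins differed widely in reads, as with bta-miR-127 (141 reads in all pools) and bta-miR-432 (2113 reads) in the segment near RTL1. Mature miRNAs are of nearly the same length, so these levels were compared without a length correction.

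**Figure D2:**
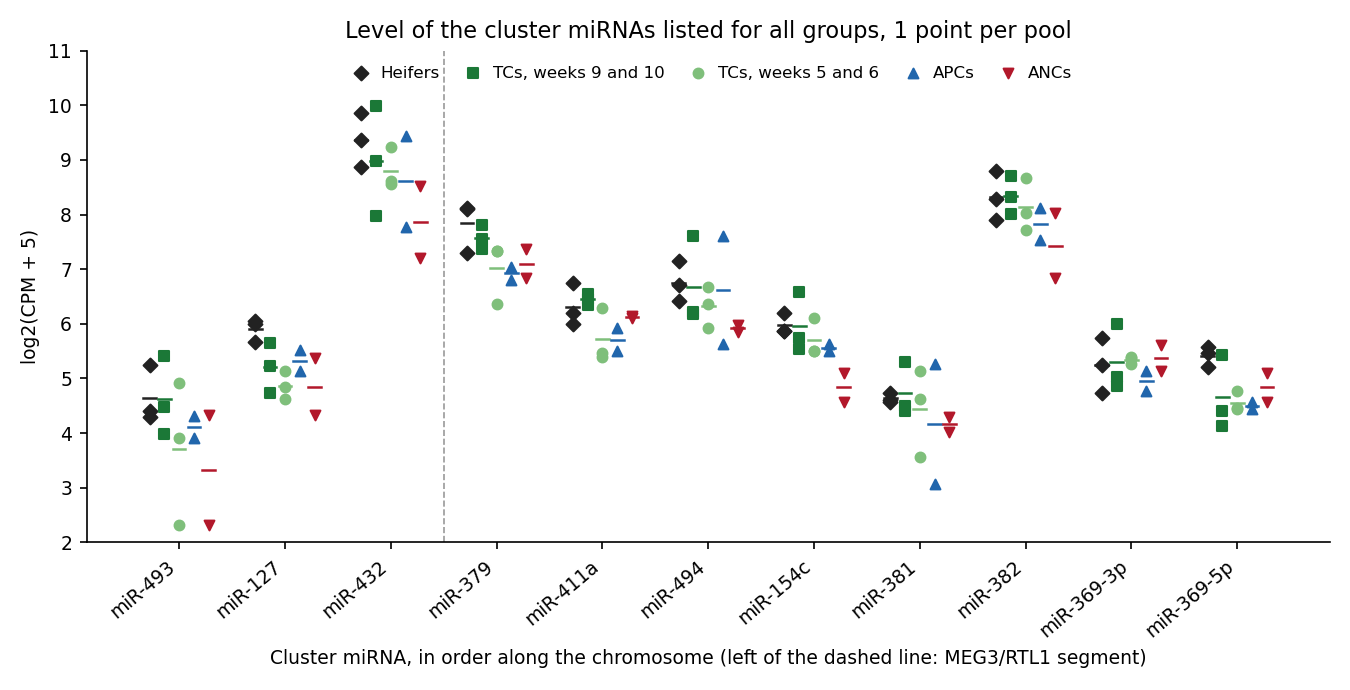
Level of the 11 cluster miRNAs listed for all 5 groups, as log2(CPM + 5), in their order along the chromosome. Each point is a pool and each short line a group mean, and miR-432 and miR-382 have the highest group means in all 5 groups. miR-379 is next in all 5 groups on this log2 scale. In APCs the mean CPM of miR-494 (117.5 CPM) is level with that of miR-379 (116.7 CPM), while its log2 mean is lower.

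bta-miR-432, from the segment antisense to RTL1, was the member with the widest range among the abundant ones. Heifer pools had 653, 929 and 461 CPM, ANC pools 142.9 and 364 CPM, and APC pools 693 and 214 CPM. It was at 371, 596 and 385 CPM in TCs at weeks 5 and 6 and at 1005, 502 and 246 CPM in TCs at weeks 9 and 10. Both ANC pools were below every heifer pool, while pools of the other 3 cow groups lay on both sides of the lowest heifer pool. The spread between pools of a group was far larger than counting alone would give, with a within-group coefficient of variation of 52.5% against 9.84% from counting. Group means fell in the order heifers, TCs at weeks 9 and 10, APCs, TCs at weeks 5 and 6, ANCs. Neighbours in this order differed by less than the larger of their SDs, except TCs at weeks 5 and 6 (450 ± 126 CPM) and ANCs (254 ± 157 CPM), which were further apart than that.

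bta-miR-382, in the array, was the second most abundant. Its levels were 307, 441 and 233 CPM in heifers, 412, 315 and 254 CPM in TCs at weeks 9 and 10, and 257, 403 and 206 CPM in TCs at weeks 5 and 6. In ANCs it was at 109 and 255 CPM and in APCs at 272 and 180 CPM. Only the first ANC pool stood well below the others, and the groups overlapped. bta-miR-379, which opens the array and gives it its name, had 273, 269 and 153 CPM in heifers, 219, 184 and 161 CPM in TCs at weeks 9 and 10, and 157, 157 and 77.7 CPM in TCs at weeks 5 and 6. ANC pools had 109 and 160 CPM and APC pools 127 and 107 CPM. All 10 cow pools were under the heifer mean of bta-miR-379, but only 4 of them were under every heifer pool.

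The largest differences of the cluster were found between ANCs and heifers. Of the 12 members listed for both groups, 7 passed the filter on low counts, all 7 were lower in ANCs, and 2 were called, bta-miR-432 and bta-miR-154c. However, bta-miR-154c and bta-miR-127 passed only through the heifer pools, as their ANC pools held 4 or 5 reads each. Their direction, and the counts of lower, called or separated members here, were therefore partly set by the filter. With limma on log2(CPM + 5), the call needed a log2 fold change of 1 or more in either direction, p below 0.05 and a Benjamini-Hochberg adjusted p no higher than 0.25, the limits of the study. Across all 215 miRNAs tested, 19.1% were called in either direction, 12.6% as lower and 6.51% as higher in ANCs. The median log2 fold change of the 7 members was -0.89, beside -0.01 for all miRNAs tested, of which 50.7% were below 0. bta-miR-432 fell by 1.48 on the log2 scale (SE 0.491, limma adjusted p = 0.121). bta-miR-154c, a member of the array, was at 53.6, 68.4 and 53.6 CPM in heifers and at 18.8 and 29.2 CPM in ANCs. TC pools had 40.1, 64.3 and 40.5 CPM early and 90.4, 41.6 and 48.2 CPM late, and APC pools 44.7 and 40.1 CPM. Its lowest 2 pools were those of ANCs, with 5 and 4 reads, and against heifers it fell by 1.15 (SE 0.503, limma adjusted p = 0.207). With 2 pools against 3, an exact two-sided permutation test of a single miRNA cannot go below 0.1, and it gave p = 0.1 for both.

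The other 5 members tested in ANCs against heifers did not pass. Their log2 fold changes were -1.06 for bta-miR-127 (limma adjusted p = 0.243, which missed the call by its unadjusted p), -0.89 for bta-miR-382 (adjusted p = 0.268), -0.83 for bta-miR-494 (adjusted p = 0.268), -0.73 for bta-miR-379 (adjusted p = 0.307) and -0.18 for bta-miR-411a (adjusted p = 0.792). Pools did not overlap for 4 of the 7 members, bta-miR-127, bta-miR-154c, bta-miR-432 and bta-miR-494, all lower in ANCs, where 25.6% of all miRNAs tested were separated in that direction and 22.3% in the other. Below the filter, bta-miR-493 (-1.34), bta-miR-369-5p (-0.58), bta-miR-381 (-0.48), bta-miR-409a (-0.11) and bta-miR-369-3p (0.14) were not tested. Both calls depended on single pools. Without the first ANC pool, the first heifer pool or the second heifer pool no member was called, and without the second ANC pool 4 were called, bta-miR-127, bta-miR-154c, bta-miR-382 and bta-miR-432. Over all miRNAs the calls in these 4 fits were 15 of 237, 19 of 222, 18 of 200 and 52 of 244, beside 41 of 215 with all pools. Where 1 ANC pool is left, the spread comes from the heifer pools alone and the lone pool is assumed to vary like them.

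Markers of other cells moved with this comparison. The summed level of 6 leukocyte miRNAs (miR-223, both arms of miR-142, miR-150, miR-155 and miR-146a, all 6 listed) was 707 to 1720 CPM in ANCs and 4797 to 5741 CPM in heifers. Erythroid miRNAs (miR-451 and miR-486, 2 of 3 listed for all groups) summed to 124 to 1247 CPM in ANCs and 1706 to 3901 CPM in heifers, with miR-451 at 0 in 1 of the 13 pools. For the epithelial list (9 of 10 listed for all groups) the sums were 5262 to 9645 CPM in ANCs and 17070 to 25650 CPM in heifers. The granulosa or gonad miRNAs miR-202 and miR-132 summed to 6751 to 8806 CPM in ANCs, within the 3446 to 12700 CPM of heifers. This sum joins miRNAs of unlike range, with miR-202 at 893 to 2361 reads per pool and miR-132 at 11 to 2382. The paper reports miR-132 by itself as lower in ANCs than in heifers, so the sum does not show each marker unchanged. The part of these cells in the lower cluster levels was not tested.

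**Figure D3:**
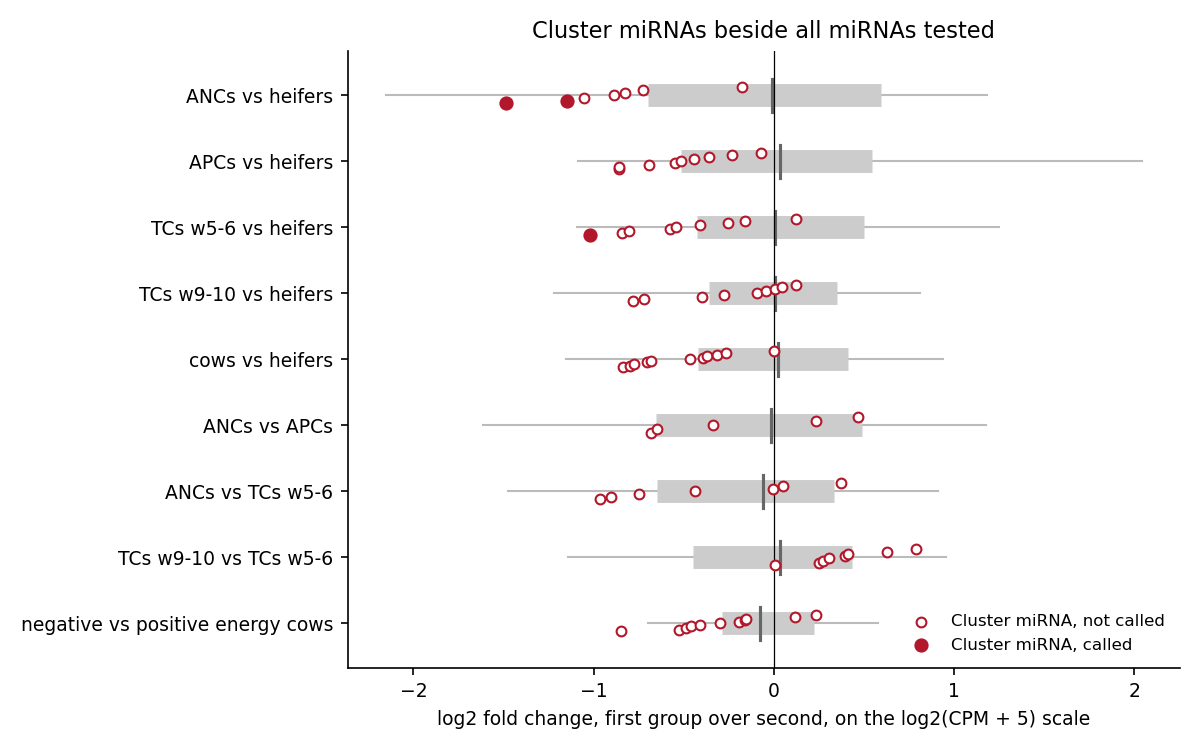
Log2 fold changes of the cluster miRNAs tested in each of the 9 comparisons (circles, filled where called) beside all miRNAs tested (thin line, 5th to 95th percentile, grey bar, middle 50%, dark tick, median). In ANCs against heifers all 7 members lie below 0 and 2 are called, and in TCs at weeks 9 and 10 against weeks 5 and 6 all 8 members lie above 0 and none is called.

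bta-miR-127, the miRNA whose match to RTL1 lets it cut the paternal RTL1 transcript, was called in TCs at weeks 5 and 6 against heifers. It was at 30.1, 19.6 and 23.6 CPM in these TCs and at 58.4, 61.3 and 45.5 CPM in heifers, from 7 to 9 and 12 to 26 reads, and it fell by 1.02 on the log2 scale (SE 0.322, limma adjusted p = 0.240). The 2 groups did not overlap, and the exact permutation test gave p = 0.1, the smallest possible with 3 pools against 3. Of the 9 members tested it was the only one called, where 6.52% of all 230 miRNAs were called, 3.91% as lower and 2.61% as higher in the TCs. In 8 of 9 members the TCs were lower, with a median log2 fold change of -0.54 beside 0.01 for all miRNAs tested, of which 49.1% were below 0. The pools of the later TCs had 32.7, 45.0 and 21.4 CPM of bta-miR-127, ANC pools 15.04 and 36.4 CPM, and APC pools 41.0 and 30.1 CPM. bta-miR-369-5p, at 16.7, 22.4 and 16.9 CPM in TCs and 39.0, 42.5 and 32.1 CPM in heifers, was also separated, and its log2 fold change of -0.84 (limma adjusted p = 0.255) missed both thresholds. Pools were separated in 2 of 9 members and lower in the TCs, against 13.5% of all miRNAs in that direction and 8.26% in the other. Both bta-miR-127 and bta-miR-369-5p passed the filter only through the heifer pools, so their direction was partly set by it.

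The call of bta-miR-127 was close to the threshold of 0.25. It was lost without any single pool other than the third heifer pool, and it was kept, with a count of 2, without that pool, where bta-miR-379 joined it. The calls over all miRNAs moved as well, to 0 without TC pool 1 or 3 or heifer pool 1 or 2, to 46 of 236 without the second TC pool and to 30 of 233 without the third heifer pool. Pools of the same replicate number deviated together in this comparison, and with the replicate as a block the adjusted p of bta-miR-127 was 0.115, still with 1 member called, while the calls over all 230 miRNAs went from 15 to 34. With the day of RNA measurement as covariate the adjusted p was 0.357, and neither a member nor any other of the 230 miRNAs was called. Leukocyte miRNAs summed to 2692 to 3011 CPM in these TCs, below the heifers, and their part was not tested.

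In APCs against heifers no member was called, where 12.5% of 232 miRNAs were called, 3.02% as lower and 9.48% as higher in APCs. All 9 members tested were lower in APCs, with a median log2 fold change of -0.52 beside 0.04 for all miRNAs, of which 49.1% were below 0, and none had an unadjusted p under 0.05. With edgeR and with DESeq2, 8 of the 9 were lower. bta-miR-369-5p (-0.86, limma adjusted p = 0.385) and bta-miR-379 (-0.86, adjusted p = 0.368) had the lowest values, and bta-miR-494 (-0.07, adjusted p = 0.950) the highest. Pools did not overlap for 5 of the 9 members, all lower in APCs, against 15.9% of all miRNAs in that direction and 18.5% in the other. These were bta-miR-127, bta-miR-154c, bta-miR-369-5p, bta-miR-379 and bta-miR-411a. Among them bta-miR-369-5p, with 5 reads in each APC pool, passed the filter only through the heifer pools. bta-miR-127, bta-miR-154c and bta-miR-411a also needed the heifer pools to pass, as did bta-miR-369-3p among the members that overlapped. Their direction, and how many members were lower or separated here, were therefore partly set by the filter. The count rose to 1 without the third heifer pool, when bta-miR-379 was called (47 of 230 miRNAs in all), and to 1 without the first APC pool, when bta-miR-432 was called (50 of 245), with the lone APC pool assumed to vary like the heifers. It rose to 2, bta-miR-369-5p and bta-miR-379, with total-count scaling, which shifted the median of all miRNAs to -0.54 and that of the members to -1.03.

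TCs at weeks 9 and 10 against heifers gave 0 called members and 0% called among all 227 miRNAs, with 23 of the 227 at an unadjusted limma p under 0.05 and none of these a member. The 9 members tested were on both sides of 0, with 6 lower and 3 higher and a median of -0.09 beside 0.01 for all, of which 49.3% were below 0. bta-miR-369-5p (-0.78, limma adjusted p = 0.633) and bta-miR-127 (-0.72, adjusted p = 0.633) had the lowest values, and no member was separated, where 7.05% of all miRNAs were separated and lower and 8.37% separated and higher. Both bta-miR-369-5p and bta-miR-127 needed the heifer pools to pass the filter, which partly set their direction. Without the third TC pool the median of the members was 0.13, with 3 of 10 lower. DESeq2 on the recovered reads called 15 miRNAs in this comparison and edgeR 0, in both cases with no member. The 4 comparisons with heifers share the same 3 heifer pools, so the members' values are given side by side and are not independent of each other.

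**Figure D4:**
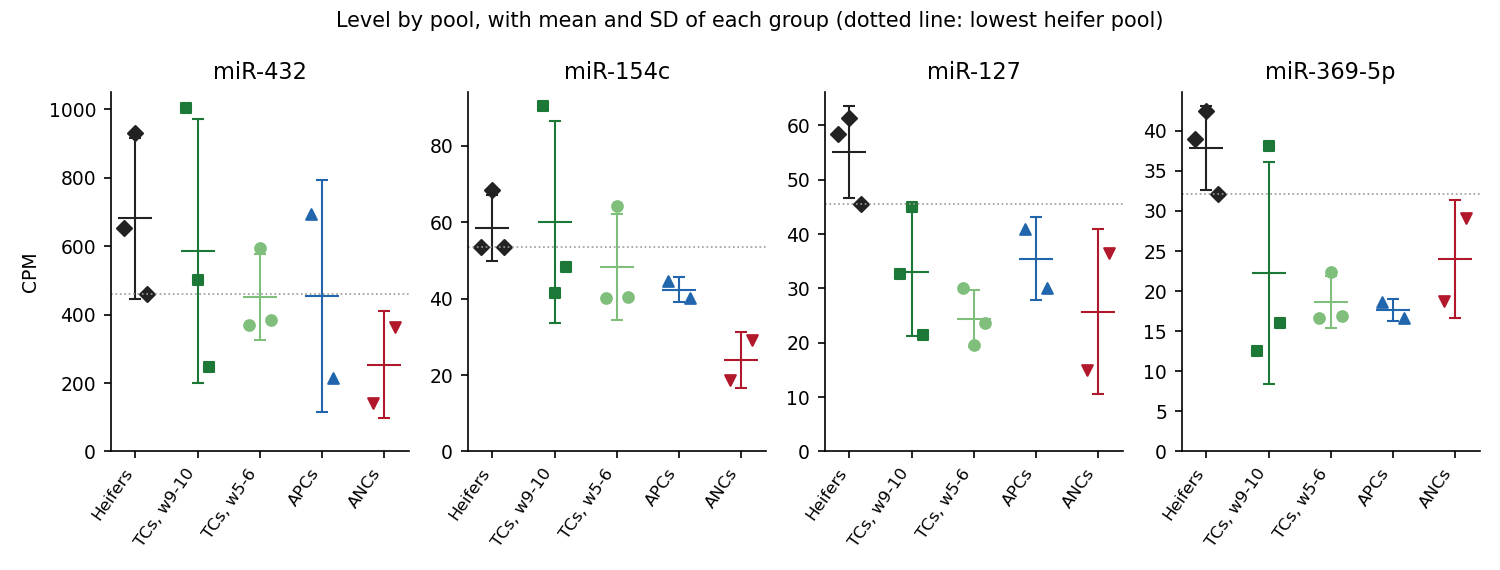
CPM by pool for miR-432, miR-154c, miR-127 and miR-369-5p, with the mean and SD of each group, and the lowest heifer pool as a dotted line. For miR-127 all 10 cow pools are below that line, for miR-369-5p 9 of 10, for miR-154c 8 of 10 and for miR-432 6 of 10.

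When all cow groups were set against heifers with equal weight in 1 fit of the 13 pools, no member was called, where 7.29% of 247 miRNAs were called, 5.26% as lower and 2.02% as higher in cows. Of the 11 members, 10 were lower in cows, with a median log2 fold change of -0.47 beside 0.02 for all miRNAs tested, of which 49.4% were below 0. bta-miR-127 was at 29.5 ± 9.65 CPM over the 10 cow pools and at 55.1 ± 8.41 CPM in the 3 heifer pools. In the 13-pool scaling all 10 cow pools were below all 3 heifer pools. bta-miR-127 was the only member with this pattern, which 2.43% of all miRNAs tested showed, with 1.21% separated and higher in cows. The fold change of bta-miR-127 was -0.84 (SE 0.318, limma adjusted p = 0.168), short of the threshold of 1, and the exact permutation test over pools gave p = 0.0105 (adjusted over all miRNAs tested 0.203). Permutations over cow pools take the pools as independent, although early and late TC pools may share cows and ANCs and APCs came from 2 cows each. Only the closest cow pool, the second of TCs at weeks 9 and 10 with 45.0 CPM, came near the lowest heifer pool with 45.5 CPM, and the 13 pools held 4 to 26 reads each of this miRNA. The separation depended on the scaling, since bta-miR-127 overlapped in the scaling of the late TCs against heifers.

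Lower levels in cows were also seen for the 5p arm of miR-369 and for bta-miR-379, although neither was called. bta-miR-369-5p passed the filter only through the heifer pools, so the filter partly set its direction. The TCs had 12.6, 38.1 and 16.1 CPM of bta-miR-369-5p late, ANCs 18.8 and 29.2 CPM and APCs 18.6 and 16.7 CPM, so that 1 late TC pool reached the heifers. It was at 20.6 ± 7.60 CPM in cows and 37.9 ± 5.25 CPM in heifers (log2 fold change -0.78, limma adjusted p = 0.218, exact permutation p = 0.00699, adjusted 0.173). For bta-miR-379 the levels were 146 ± 41.2 and 231 ± 68.2 CPM (log2 fold change -0.68, limma adjusted p = 0.252, exact permutation p = 0.0385, adjusted 0.288). The 3 members of the segment near RTL1 had fold changes between -0.84 and -0.70, and the 8 of the array between -0.78 and 0.00, so the ranges of both segments overlapped. bta-miR-432, with -0.80 (limma adjusted p = 0.358), was not called, and its cow pools ranged from 142.9 to 1005 CPM. In every cow group the summed leukocyte miRNAs were below the lowest heifer pool, with a highest cow pool of 4657 CPM, and their part was not tested.

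Both arms of a hairpin were listed for 1 member only, miR-369, and they went different ways. The 3p arm was at 34.4 ± 10.7 CPM in cows and 34.4 ± 13.7 CPM in heifers, a log2 fold change of 0.00 (SE 0.328, limma adjusted p = 0.998). By pool it was at 48.7, 33.0 and 21.4 CPM in heifers, 33.4, 36.4 and 37.1 CPM in TCs early, 27.6, 58.9 and 24.1 CPM in TCs late, 30.1 and 43.7 CPM in ANCs and 22.4 and 30.1 CPM in APCs, with all groups overlapping the heifers. A ratio of both arms in the same library does not depend on the scaling of libraries. In heifers the ratio of 5p to 3p reads was 0.800 (8 and 10 reads), 1.29 (18 and 14) and 1.5 (12 and 8). In the 10 cow pools it ran from 0.455 to 0.833 with a median of 0.620, and 3p reads were more numerous than 5p reads in all 10. Summed over pools, cows had 59 5p and 100 3p reads and heifers 38 and 32. The groups nearly separated, with the first APC pool (0.833, 5 and 6 reads) above the first heifer pool.

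The log2 ratio of the arms was lower in cows by 0.965 on average, a geometric mean of 0.592 against 1.16, with an exact two-sided permutation p of 0.00699 over 286 arrangements of the pools, where the smallest possible was 0.00350. This ratio was chosen after the values of both arms had been seen, and the permutation again takes the cow pools as independent. The same ratio was computed for all 17 hairpins with both arms listed for all groups and read in every pool, of which 3 (17.6%) had p under 0.05. These were this hairpin, miR-296 (-1.22) and miR-503 (-1.48), each with an adjusted p of 0.0396 over the 17, and the hairpin of the cluster had rank 4 in size, after miR-503, miR-142 (-1.24, exact permutation p = 0.0804) and miR-296. Leaving out each pool in turn gave differences from -1.23 to -0.777. In single pools the reads are few, and the exact 95% interval of the 5p share in the pool with most reads, the second heifer pool, was 37.7% to 73.6%.

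**Figure D5:**
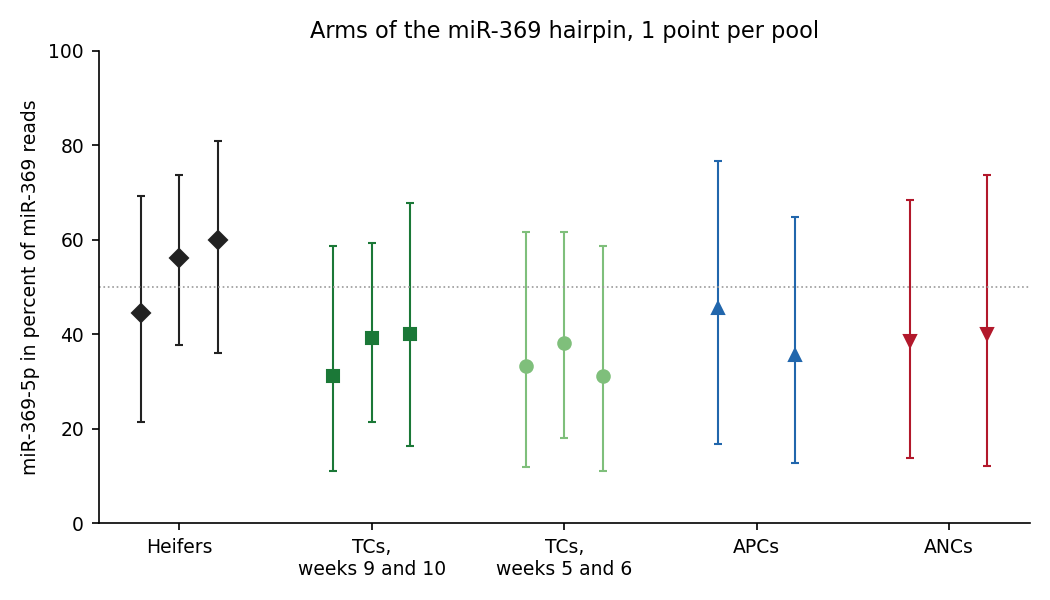
Share of the 5p arm among the reads of miR-369 in each pool, in percent, with exact 95% binomial intervals that cover counting error only. All 10 cow pools are below 50%, and 2 of 3 heifer pools are above it.

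Between groups of cows no member was called in any comparison. In ANCs against APCs, 5 members were tested and 0% of 207 miRNAs were called, with 16 at an unadjusted limma p under 0.05 and no member among them, while DESeq2 called 32 miRNAs and no member. In 3 of the members ANCs were lower and in 2 higher, with a median of -0.34 beside -0.02 for all, of which 50.7% were below 0, and total-count scaling turned the median to 0.07 as it moved that of all miRNAs to 0.40. The median also turned without single pools, to 0.07 without the first ANC pool, 0.12 without the first APC pool and 0.13 without the second, and was -0.82 without the second ANC pool. Levels of bta-miR-432 and bta-miR-494 in the 2 APC pools were so far apart (693 and 214, 44.7 and 190 CPM) that they overlapped with the ANC pools for both miRNAs. bta-miR-411a, with 63.9 and 65.6 CPM in ANCs and 55.9 and 40.1 CPM in APCs, was the only member separated, and higher in ANCs, where 24.6% of all miRNAs were separated in that direction and 20.3% in the other. In ANCs against TCs at weeks 5 and 6, both early and in negative balance, 5 of 7 members were lower in ANCs (median -0.44 beside -0.06 for all with 56% below 0, 0% of 225 called, 18 at an unadjusted limma p under 0.05, none a member). In the scaling of that comparison bta-miR-154c, bta-miR-432 and bta-miR-494 were separated and lower in ANCs, with limma adjusted p of 0.602, 0.602 and 0.768, although bta-miR-494 overlapped in the 13-pool scaling (58.3 CPM in the second ANC pool and 55.9 CPM in the second TC pool), where 15.1% of all miRNAs were separated in that direction and 11.1% in the other. bta-miR-154c, with 5 and 4 reads in the ANC pools, passed the filter only through the TC pools, so the filter partly set its direction. The median of the members was -0.11 without the first TC pool and -0.24 without the first ANC pool. Some marker sums separated these groups too, with leukocyte sums of 707 to 1720 CPM in ANCs and 2692 to 3011 CPM in early TCs. Erythroid sums (124 to 1247 CPM in ANCs and 731 to 5489 CPM in early TCs) overlapped. Epithelial sums (5262 to 9645 CPM and 6353 to 32860 CPM) overlapped as well. Granulosa or gonad sums were 6751 to 8806 CPM in ANCs and 3401 to 5523 CPM in early TCs. The paper reports miR-132, part of the latter sums, as lower in ANCs than in these TCs, so the sums hide its direction. What part these markers had was not tested.

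In the TCs, all 8 members tested were higher at weeks 9 and 10 than at weeks 5 and 6, with a median log2 fold change of 0.35 beside 0.04 for all 224 miRNAs, of which 47.8% were below 0. None was called, as was the case for all 224 miRNAs (0%), of which 13 had an unadjusted limma p under 0.05 and none was a member. bta-miR-411a, at 87.9, 76.2 and 83.1 CPM late and 73.5, 39.2 and 37.1 CPM early, and bta-miR-379, with the levels given above, did not overlap between the times (log2 fold changes 0.79 and 0.63, limma adjusted p = 0.582 and 0.609), where 9.38% of all miRNAs were separated in that direction and 4.46% in the other. bta-miR-369-3p differed least, with 0.01. Whether the same cows were in both pools is not given in the sources used here. DESeq2 placed 1 of the 8 members below 0 and called 14 miRNAs, none of them a member. The one direction rested on single pools. The median was 0.14 with 2 of 7 members below 0 without the first late pool, 0.18 with 2 of 8 without the second late pool, and 0.15 with 2 of 8 without the third early pool.

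Cows in negative balance (TCs at weeks 5 and 6 and ANCs) against cows in positive balance (TCs at weeks 9 and 10 and APCs) gave no called member, and 0.405% of 247 miRNAs were called. In all, 9 of 11 members were lower in negative balance, with a median of -0.30 beside -0.08 for all, of which 57.5% were below 0. The values ran from -0.85 for bta-miR-493 (limma adjusted p = 0.882) to 0.23 for bta-miR-369-3p (adjusted p = 0.922), and no member was separated. bta-miR-127 was at 24.9 ± 8.47 CPM in 5 pools of negative and 34.03 ± 9.30 CPM in 5 pools of positive balance (log2 fold change -0.41, limma adjusted p = 0.922, exact permutation p = 0.159).

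Within a group the members often moved together from pool to pool. In the second ANC pool 10 of the 11 members were above the mean of their group, and in the first 1 was, with 56.3% and 43.7% of all 247 miRNAs above theirs. The first APC pool had 9 members above and the second 2. With 2 pools in a group the deviations mirror each other, so the counts of its pools are 1 observation. Among heifers, 6, 8 and 1 members were above the group mean in pools 1, 2 and 3. The counts were 6, 8 and 2 in the early TCs and 7, 6 and 1 in the late TCs. The third pool of each of these groups thus had the fewest members above the mean, while 48.2% to 52.2% of all miRNAs were above the group mean there. Pools are scaled by all miRNAs and the members share a library, so these counts are a description.

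bta-miR-494, a miRNA of the array, went against most other members in the APC pools, being higher in the second. There bta-miR-369-3p was also higher, with 22.4 CPM in the first and 30.1 CPM in the second. Levels of bta-miR-494 were 136, 80.2 and 99.1 CPM in heifers, 67.8, 191 and 69.7 CPM in TCs at weeks 9 and 10, and 96.9, 55.9 and 77.7 CPM in TCs at weeks 5 and 6. ANC pools had 52.7 and 58.3 CPM, and APC pools 44.7 and 190 CPM. The ratio of bta-miR-494 to bta-miR-432 reads ran from 0.0645 in the first APC pool (12 and 186 reads) to 0.891 in the second (57 and 64 reads), the extremes of all 13 pools within 1 group of 2 cows. In the second APC pool bta-miR-494 took 22.1% of the reads of the 11 members, beside 3.27% to 12.7% in the other pools.

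The low members gave few reads. bta-miR-381 was at 1 to 10 reads per pool and bta-miR-493 at 0 to 15, with 0 in the third pool of TCs at weeks 5 and 6 and in the second ANC pool, where 3 reads set the limit of what could be seen. The 7 members outside some lists had at most 11 reads in a pool. bta-miR-433 (1 to 8 reads), bta-miR-485 (1 to 5) and bta-miR-487b (0 to 11) were listed for the TCs at both times and heifers, bta-miR-323 (2 to 7) and bta-miR-380-3p (1 to 4) for TCs at weeks 9 and 10 and heifers, bta-miR-409a (0 to 5) for all groups but TCs at weeks 5 and 6, and bta-miR-411c-5p for heifers only, with 3, 7 and 0 reads. None of these 7 passed the filter in any comparison, so they were not tested, and none was called in the fits without a filter that included them.

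Other imprinted miRNA genes were looked at for contrast. Of miR-296 and miR-298 (GNAS), miR-335 (MEST), miR-483 (IGF2) and miR-675 (H19), the listed ones were both arms of miR-296, miR-335 and miR-483. bta-miR-296-3p went the other way from the cluster, with 5134 ± 682 CPM in APCs and 2447 ± 637 CPM in heifers, and it was the only one called in any comparison (APCs against heifers, log2 fold change 1.15, limma adjusted p = 0.172). bta-miR-335 was at 1304 ± 440 CPM in TCs at weeks 9 and 10 and 662 ± 338 CPM in heifers (log2 fold change 1.01, limma adjusted p = 0.453). bta-miR-483 was listed for TCs at weeks 5 and 6 and heifers, with a mean of 11.0 and 9.71 CPM, and bta-miR-296-5p was tested and not called.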

How the data were processed

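Small RNA of follicular fluid EVs had been sequenced with the QIAseq miRNA kit in 13 pools. According to the paper's methods and the submitters' processing notes, the authors trimmed adaptors with cutadapt 1.11, mapped reads to the bovine genome UMD3.1 with Bowtie2 2.2.2, annotated them against miRBase and normalized the counts with TMM in edgeR. The deposited values are TMM-normalized CPM, not logged. For libraries whose deposited values sum to more than CPM allow, the same values were handled as signal, a normalized quantity with no fixed total. Columns that belong to no sample numbered 0.

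The step between low values gave the reads of each library (3681 of 3681 values whole within 0.1 read). Pools of a comparison were filtered with filterByExpr (minimum count 10, minimum total count 15), scaled with TMM of edgeR 4.0.16 and compared with limma 3.58.1 (trend) on log2(CPM + 5), which understates changes of low miRNAs. That filter can pass a miRNA that reaches the count in the pools of 1 group only. Fits used all listed miRNAs of both groups, with Benjamini-Hochberg adjustment over all, with 1 fit of 13 pools for contrasts over several cow groups. Fold changes come from each comparison's own scaling, levels from the 13-pool scaling. Recovery and fits were tested on simulated data. Exact two-sided permutation tests over pools and exact binomial intervals used scipy 1.17.1. DESeq2 1.42.0 and edgeR's quasi-likelihood test on the recovered reads were alternatives, as were other pseudocounts, filters, scalings and left-out pools.

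Replicate numbers come from the labels. Same-numbered pools of TCs at weeks 5 and 6 and heifers deviated together (correlations over miRNAs 0.216, 0.377 and 0.386), so a replicate block was read as pairing for them. This block was fitted only as another setting, and the main fits and permutation tests took no pairing. In the other comparisons at least 1 correlation was under 0.1 or only 2 pairs existed, and they were taken as unpaired. Values in every pool are given for members called in any comparison, the 3 most abundant members, bta-miR-432 and both arms of miR-369, and other members are given by range and counts, with bta-miR-494, bta-miR-411a and bta-miR-411c-5p added after their values were seen. The members and lists were chosen with earlier results of these data known. RefSeq names and gene order come from the assembly ARS-UCD2.0, whose coordinates were not used since the files use another build.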

Additional observations from a re-analysis of the deposited data

How the results depend on the processing

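The 9 counts of called members were recomputed under 9 to 11 other settings, and no member was called as higher under any of them. In ANCs against heifers the count was 2 and went to 1 with a pseudocount of 1 CPM, with one of 20 CPM, with DESeq2 and with the day of RNA measurement as covariate, to 0 at an adjusted p of at most 0.05, and to 5 on the deposited CPM. Leaving out single pools gave 0 to 4. In APCs against heifers the count of 0 became 2 with total-count scaling and 2 on the deposited CPM, and 0 to 1 without single pools. In TCs at weeks 5 and 6 against heifers the count of 1 became 0 with either other pseudocount, at an adjusted p of at most 0.05 and with the day as covariate, and 2 with total-count scaling, with 0 to 2 without single pools. Cows against heifers went from 0 to 1 (bta-miR-127, -1.02) with total-count scaling, which shifted the median of all miRNAs to -0.17. The other 5 comparisons kept a count of 0 under every setting fitted. With the replicate block, taken as pairing for TCs at weeks 5 and 6 with heifers alone, the count was 1 there, 3 in ANCs against heifers (bta-miR-379, bta-miR-382 and bta-miR-432, without bta-miR-154c) and 0 in the other 7 comparisons. Without a filter the counts were unchanged, and 1 fit over all 13 pools gave 3 in ANCs against heifers. Over all miRNAs, calls went from 41 to 64 with the block in ANCs against heifers, from 29 to 61 with total-count scaling and 49 on the deposited CPM in APCs against heifers, from 15 to 37 with DESeq2, 34 with the block, 26 with total-count scaling, 4 with a pseudocount of 1 CPM and 0 with the day as covariate in early TCs against heifers, and from 18 to 32 with the block in cows against heifers. The day as covariate was not fitted for comparisons with APCs, for whose second pool no day was given. bta-miR-432 in APCs against heifers ranged from -1.49 to 0.14 without single pools. The causes of these changes were not tested, and reads of 4 to 36 per pool limit bta-miR-127 and bta-miR-154c.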
